A study of Mus musculus with 6 samples.

Results

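The genes described here are the mouse DEAD box and DEAH box helicases, read out by total RNA sequencing of splenocytes with and without topoisomerase III-beta. They were chosen by symbol: Ddx or Dhx followed by a number and at most 1 letter, leaving out Ddx3y and Ddx58. Of 56413 gene symbols in the count table, 51 were members, 35 Ddx and 16 Dhx. The rule reads only the symbol. The symbol is a naming rule and not a functional class, so helicases with other names, such as Eif4a1, fall outside it.

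The study compared wild-type (WT) mice with mice lacking Top3b (Top3b-KO), with 3 libraries of each genotype. All 6 libraries came from fresh total splenocytes that had no treatment named in the labels, and the RNA was depleted of ribosomal RNA. The labels give no strain, age, sex or knockout allele, and they do not say whether the replicates came from separate animals, so p-values measure the spread between these libraries, which may be technical. Total splenocytes are a mixture of cell types, in which fewer cells of a type and less RNA per cell cannot be told apart.

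DEAD box and DEAH box proteins use ATP to unwind short RNA duplexes or to strip proteins from RNA, and they act at nearly every step in the life of a transcript. DEAD box enzymes mostly pry open short duplexes locally, whereas many DEAH box enzymes move along the strand. Several of them act on R-loops, the RNA:DNA hybrids that form during transcription and whose mapping was the study's other aim. Top3b is the topoisomerase known to act on RNA as well as DNA.

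Total counts ranged from 9941014 to 25473404 per library, and Top3b-KO replicate 3 was the shallowest, where 3 counts equal 0.303 CPM (counts scaled to library size with TMM factors). Top3b was at 95.1, 86.9 and 91.0 CPM in the WT libraries and at 51.5, 48.2 and 49.7 CPM in the knockouts. It was lower in all 3 knockout libraries but not absent, and the labels do not give the deleted part of the gene. All 6 markers of B cells and all 6 of T cells fixed for the label check were detected in every library. Erythroid markers summed to between 989 and 1743 CPM in the WT libraries and 813 and 1177 CPM in the knockouts, and neutrophil markers to between 602 and 1068 CPM and 433 and 1445 CPM. The log2 fold changes of all 6 erythroid, all 6 macrophage and all 6 B cell markers were below 0, with medians of -0.36, -0.16 and -0.052. Of the T cell markers 5 of 6 were above 0, with a median of 0.059. Of 6 cycling cell markers 5 were below 0, with a median of -0.11, and the neutrophil markers split into 3 above and 3 below. In edgeR 0 of these markers, 6 per cell type, passed after adjustment. An unadjusted p under 0.05 was found for 3, namely Cd3e (higher) and C1qa and C1qb (lower), beside 5.52% of all tested genes. Their part in the helicase values was not tested.

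No helicase gene passed the test between genotypes. Of the 50 members with enough counts to be tested (34 Ddx and 16 Dhx), 0 passed an adjusted p of 0.05 (edgeR quasi-likelihood F test, Benjamini-Hochberg over all genes), where 0.0107% of all 18716 tested genes did. At an unadjusted p under 0.05 there was 1 member, Ddx3x, against 5.52% of all tested genes, and DESeq2 gave the same single member. Ddx3x was higher in Top3b-KO, as were 1.83% of all tested genes at that level, and 0 members were lower, where 3.69% of all tested genes were. The remaining member, Ddx4 (the germ cell helicase also called Vasa), had between 3 and 21 counts per library and was not tested. All 48 members with a mean of at least 10 CPM lay within 1.2-fold between genotypes, as did 98% of all 9669 tested genes at that level. Without the level limit 49 of 50 members did, beside 83.7% of all tested genes.

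The median log2 fold change (Top3b-KO over WT) was 0.035 over the 34 Ddx members and 0.0068 over the 16 Dhx members, beside -0.0029 over all tested genes. Values above 0 occurred for 22 Ddx and 9 Dhx members, and for 49.1% of all tested genes. Leaving out WT replicate 3 put the Dhx median at -0.042, and leaving out knockout replicate 1 or 3 put it at -0.0099 or -0.0032, so its sign was not stable to the loss of 1 library. All 16 Dhx members had libraries that overlapped between genotypes. Among Ddx members the 3 knockout libraries lay above the 3 WT libraries for Ddx1, Ddx21 and Ddx42 and below them for Ddx28 and Ddx49. That is 5 of 50 members, where 11.0% of all tested genes had groups that did not overlap, 5.39% with the knockouts higher and 5.63% with them lower.

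**Figure D1:**
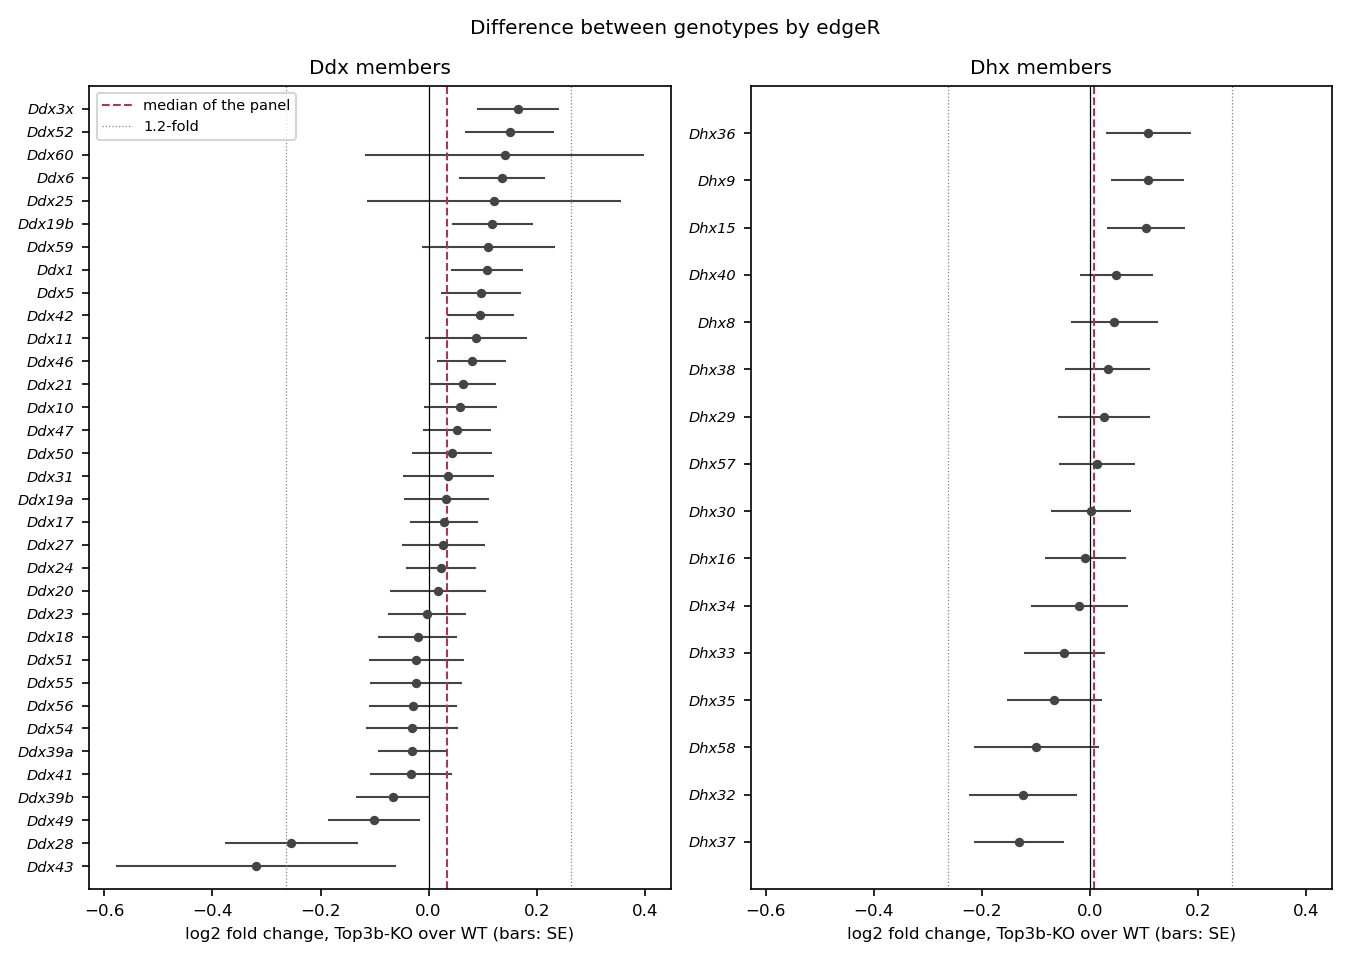
Log2 fold change between genotypes for each tested Ddx member (left) and Dhx member (right), with points for the edgeR estimate and bars for its SE. The dashed lines mark the panel medians of 0.035 and 0.0068, the dotted lines mark 1.2-fold, and Ddx43, at a mean under 10 CPM, is the single member past them.

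The abundance of the family was very uneven. Compared per length (CPM per kilobase of the longest coding transcript), Ddx5, which partners transcription factors and the microRNA-processing complex, stood at 675 CPM per kilobase and made up 28.4% of the summed level of the 50 members. Next came Ddx3x, a translation helicase on the X chromosome (159), Ddx17, the close paralog of Ddx5 (159), and Ddx6, a decapping and translational repression factor of P-bodies (141). Dhx15, which takes spliceosomes apart, was the highest Dhx member at 114 CPM per kilobase, followed by Dhx9 at 84.2. Ddx3x and Ddx17 did not differ beyond their spread over libraries, and neither did Ddx39b at 78.5 and Dhx9. At the low end, the germ cell helicases Ddx43 and Ddx25 were at 0.750 and 0.414 CPM per kilobase. The median level was 29.0 CPM per kilobase for Ddx members and 21.5 for Dhx members.

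**Figure D2:**
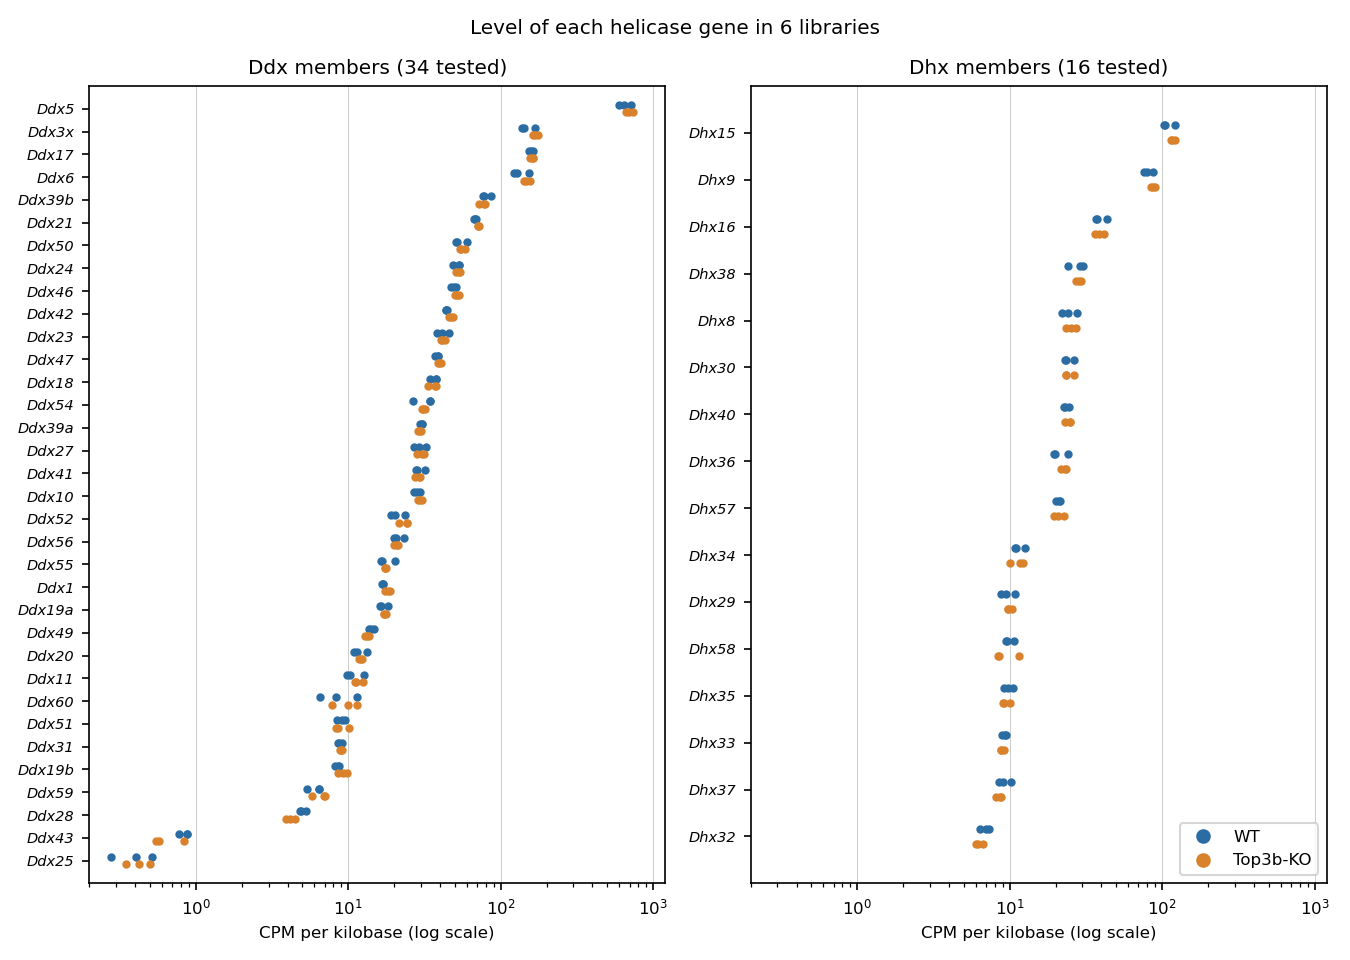
Level of each tested member in the 6 libraries, in CPM per kilobase on a log scale, ordered by mean, with 1 point per library coloured by genotype. The differences between genes, from 0.414 for Ddx25 to 675 for Ddx5, were far wider than those between libraries of 1 gene, and the points of both genotypes largely coincide.

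The 6 members that act as cofactors of transcription and RNA processing all had log2 fold changes above 0, between 0.017 and 0.11. Of all tested genes 49.1% were above 0. The 6 transcripts held 40.0 to 49.7% GC, in the range of the 24 members with the lowest GC content, of which 21 were above 0. With each library's trend on GC content removed, Ddx5, Ddx1 and Ddx17 were at 0.047, 0.075 and 0.024. Ddx5 was at 2288, 2139 and 2539 CPM in the WT libraries and 2609, 2482 and 2359 CPM in the knockouts. WT replicate 3 lay within the knockout range and the groups overlapped, with a log2 fold change of 0.097 (SE 0.074). It was 0.041 when WT replicate 2 was left out and 0.165 when WT replicate 3 was. Ddx17 was at 748, 721 and 767 CPM in the WT libraries and 776, 767 and 737 CPM in the knockouts, with no ordering by genotype.

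Ddx1, which acts on RNA:DNA hybrids at DNA breaks and in tRNA ligation, was the member of this group whose libraries did not overlap. It was at 80.3, 82.4 and 81.8 CPM in the WT libraries and 84.5, 90.8 and 88.2 CPM in the knockouts. The difference was 0.11 on the log2 scale (SE 0.066), and edgeR's adjusted p was 0.91. Dhx9, known to unwind R-loops and other RNA structures, was at 353, 365 and 405 CPM in the WT libraries and 392, 414 and 403 CPM in the knockouts. Its highest WT library lay inside the knockout range. Dhx36, which resolves G-quadruplexes, ranged from 110 to 136 CPM in the WT libraries and from 123 to 133 CPM in the knockouts. Ddx20, a subunit of the SMN complex that assembles spliceosomal snRNPs, had a log2 fold change of 0.017 (SE 0.088).

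Members of translation and mRNA decay held the largest positive difference. Ddx3x was at 650, 672 and 792 CPM in the WT libraries and 787, 823 and 760 CPM in the knockouts, or 705 ± 76.6 and 790 ± 31.7 CPM (SD, n = 3). WT replicate 3 stood above the lowest and the middle knockout libraries, so the groups overlapped. The log2 fold change was 0.16 (SE 0.076). Its unadjusted edgeR p was 0.043 and became 0.89 after Benjamini-Hochberg adjustment. Leaving out any 1 library other than WT replicate 3 moved the unadjusted edgeR p to between 0.052 and 0.18, and without WT replicate 3 it was 1.83e-04, with an adjusted p of 0.064 and a log2 fold change of 0.26.

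Ddx6 had the same arrangement, at 737, 779 and 927 CPM in the WT libraries and 857, 942 and 885 CPM in the knockouts (log2 fold change 0.14, SE 0.080). That value was 0.066 when WT replicate 1 was left out and 0.24 when WT replicate 3 was, with an adjusted p of 0.093 by edgeR in the latter case. Dhx29, which helps ribosomes scan structured leaders, Dhx34, a factor of nonsense-mediated decay, and Dhx57 had log2 fold changes between -0.020 and 0.027. All 3 overlapped between genotypes.

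**Figure D3:**
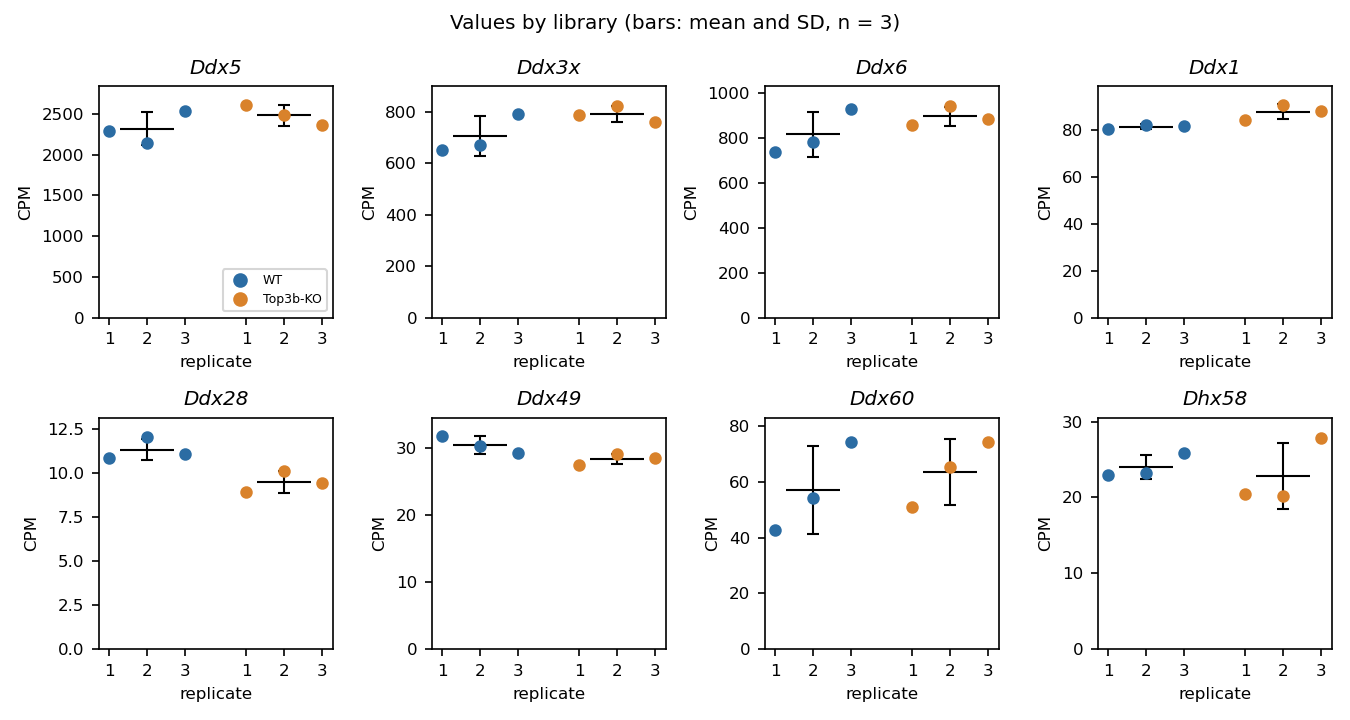
CPM in each library for 8 members, with axes that start at 0, points coloured by genotype, and bars for the mean and SD of 3 libraries. WT replicate 3 lies above the other WT libraries for Ddx5, Ddx3x and Ddx6, Ddx1 is higher and Ddx28 and Ddx49 lower in all 3 knockout libraries, and Ddx60 spreads as widely within genotypes as between them.

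Splicing helicases remodel the spliceosome at successive steps. The 9 members had a median log2 fold change of 0.033, from -0.066 for Dhx35 to 0.10 for Dhx15, and 0 passed the test. Dhx15 was at 315, 308 and 366 CPM in the WT libraries and 349, 366 and 346 CPM in the knockouts, again with WT replicate 3 in the knockout range. Ddx46, which acts when U2 snRNP joins the branch site, was at 288, 266 and 283 CPM in the WT libraries and 287, 293 and 305 CPM in the knockouts. One overlapping library, WT replicate 1, separates this from a full ordering by genotype.

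Ddx42, a partner of the U2 snRNP component SF3B, was at 176, 176 and 179 CPM in the WT libraries and 184, 189 and 195 CPM in the knockouts. The genotypes did not overlap, but the difference was 0.096 on the log2 scale (SE 0.062, adjusted p 0.91 by edgeR). Ddx23, the helicase of the U5 snRNP that has also been tied to R-loops, was at 133 ± 12.5 CPM in the WT libraries and 132 ± 3.64 CPM in the knockouts (SD, n = 3). The late-acting Dhx8, Dhx16 and Dhx38 had log2 fold changes of 0.045, -0.0086 and 0.033. Ddx41, a spliceosomal helicase mutated in familial myeloid malignancy, was at -0.033.

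The 4 mRNA export helicases showed a median log2 fold change of 0.0013. Ddx39b, the TREX export subunit, was at 246, 222 and 218 CPM in the WT libraries and 226, 206 and 223 CPM in the knockouts, and its paralog Ddx39a was at 117, 116 and 113 CPM and 110, 115 and 114 CPM. Both overlapped between genotypes. Ddx19a and Ddx19b, which release mRNA at the cytoplasmic face of the nuclear pore, are a pair of close paralogs. Ddx19a was at 46.6, 41.9 and 41.2 CPM in the WT libraries and 45.4, 43.5 and 43.7 CPM in the knockouts. For Ddx19b the levels were 54.0, 57.1 and 57.0 CPM in the WT libraries and 56.8, 61.4 and 64.7 CPM in the knockouts.

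How cleanly the Ddx19 pair can be counted depends on its sequence. In GENCODE M21 the coding parts of 1434 and 1437 bases were 90.4% identical over 1434 aligned bases, with an identical run of 275 bases. Of all 101-base windows of the Ddx19a transcript, 23.1% also occurred in Ddx19b. The following stretch of each coding part is shown because it has 4 differing bases, in capitals, at its start, and then no difference for the rest of the window.
Ddx19a: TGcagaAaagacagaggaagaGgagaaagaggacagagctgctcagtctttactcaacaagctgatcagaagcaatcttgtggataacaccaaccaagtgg
Ddx19b: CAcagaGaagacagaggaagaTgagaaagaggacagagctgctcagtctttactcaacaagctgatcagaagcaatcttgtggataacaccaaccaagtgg
A short fragment from the right-hand part of this stretch carries no base that assigns it to either gene. The split of counts between the pair is therefore uncertain, since no label states how reads with several matches were treated.

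The same window count was made for every member. For 34 of 51 members no 101-base window of the longest coding transcript occurred in a transcript of another gene, and for 8 more than 5% did. The largest shares were 39.5% for Ddx18, mostly with the processed pseudogene Gm16433, and 30.3% for Ddx49, with the opposite-strand gene Homer3. Ddx39a shared 10.9% with the opposite-strand gene Adgre5, which had more counts than Ddx39a. Adgre5 was at 258 ± 18.5 CPM in the WT libraries and 242 ± 6.73 CPM in the knockouts (SD, n = 3). In 12 members an exon overlapped an exon of a gene on the opposite strand. No label states the strand setting of the counting, although the kits named mark strand, so the counts of these members are uncertain where the genes overlap.

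Ribosome biogenesis helicases work mostly in the nucleolus, where they fold and trim pre-ribosomal RNA. The 16 members split evenly, with 8 log2 fold changes above 0 and 8 below and a median of 0.0017. Ddx21, which also binds R-loops, was at 327, 323 and 317 CPM in the WT libraries and 335, 341 and 334 CPM in the knockouts. These were the tightest replicates among members above 300 CPM, and the genotypes did not overlap, but the log2 fold change was 0.063 (SE 0.061, adjusted p 0.95 by edgeR). Ddx50, its paralog and genomic neighbour, was at 129, 131 and 153 CPM in the WT libraries and 139, 138 and 149 CPM in the knockouts, with full overlap.

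Ddx49 was at 31.8, 30.3 and 29.2 CPM in the WT libraries and 27.5, 29.1 and 28.5 CPM in the knockouts, lower in 3 of 3 knockout libraries by a narrow margin (log2 fold change -0.10, SE 0.085). With the trend on transcript GC content removed the difference was -0.0064, and Homer3, the gene on the other strand, was at 5.09 ± 0.760 CPM in the WT libraries and 4.82 ± 0.664 CPM in the knockouts (SD, n = 3). The lowest and highest members of the group were Dhx37 at -0.13 and Ddx52 at 0.15, and both overlapped between genotypes. Ddx54 was at 149 and 150 CPM in WT replicates 1 and 2 but at 115 CPM in WT replicate 3, with the knockout libraries between these values at 139, 133 and 133 CPM.

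Both mitochondrial members act in the assembly of the mitochondrial ribosome. Ddx28 had the largest negative difference among members at 10 CPM or more. It was at 10.8, 12.0 and 11.1 CPM in the WT libraries and 8.89, 10.1 and 9.41 CPM in the knockouts, which places all 3 knockout libraries below all 3 WT libraries. The log2 fold change was -0.25 (SE 0.122), with an unadjusted p of 0.052 and an adjusted p of 0.90 by edgeR. Ddx28 lies against Dus2 on the opposite strand, which was at 38.1 ± 4.10 CPM in the WT libraries and 39.2 ± 2.92 CPM in the knockouts (SD, n = 3). Dhx30 was at 122, 109 and 106 CPM in the WT libraries and 122, 108 and 108 CPM in the knockouts, and its log2 fold change was 0.0016.

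The antiviral members Ddx60 and Dhx58 are induced by interferon, and Dhx58 encodes LGP2, a regulator of RIG-I-like receptor signalling. Ddx60 had the widest spread of any member at 10 CPM or more, with its highest library at 1.73 times its lowest. It was at 42.8, 54.2 and 74.2 CPM in the WT libraries and 50.9, 65.4 and 74.2 CPM in the knockouts, so the same top level occurred in both genotypes. Dhx58 was at 22.9, 23.2 and 25.9 CPM in the WT libraries and 20.4, 20.2 and 27.8 CPM in the knockouts. Their log2 fold changes were 0.14 (SE 0.258) and -0.099 (SE 0.116). With 1 library left out, that of Ddx60 ran from -0.033 (WT replicate 1 left out) to 0.37 (WT replicate 3 left out), and that of Dhx58 from -0.24 (knockout replicate 3 left out) to -0.0135 (knockout replicate 2 left out).

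A list of 12 interferon-stimulated genes, chosen after the Ddx60 values were seen, was also lowest in WT replicate 1 and highest in WT replicate 3. Their median deviation from the mean of the 6 libraries was -0.28, 0.041 and 0.20 on the log2 scale in WT replicates 1 to 3 and -0.078, -0.053 and 0.11 in Top3b-KO. The median log2 fold change of the list was -0.036 and 0 of 12 had an unadjusted p under 0.05 by edgeR. Whether interferon set the spread of Ddx60 was not tested.

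The 200 bases before the Ddx60 start are shown because they hold a motif of this response. They are from RefSeq on GRCm38.p6, chr8:61927887-61928086 on the plus strand, with matches to the core of the interferon-stimulated response element (GAAA, then 2 bases of any kind, then GAAA) in capitals.
Ddx60 promoter: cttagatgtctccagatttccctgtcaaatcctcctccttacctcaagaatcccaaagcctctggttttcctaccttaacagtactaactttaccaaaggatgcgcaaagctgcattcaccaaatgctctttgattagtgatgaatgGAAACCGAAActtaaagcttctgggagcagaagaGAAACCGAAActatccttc
The matches begin 53 and 19 bases before the start and have the same letters. This pattern, the only one searched for, on both strands, occurred in 3.44% of all 32851 promoters of that table and in those of 2 of the 45 members found there, Ddx60 and Ddx49. A match is a description of the letters and was not measured as a binding site.

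The remaining members were at low or unremarkable levels. Ddx11, an iron-sulfur DNA helicase of sister chromatid cohesion, was at 52.5, 40.4 and 42.9 CPM in the WT libraries and 51.8, 45.7 and 46.5 CPM in the knockouts. Ddx25 and Ddx43, known from germ cells, were between 1.21 and 3.61 CPM in all libraries, above the level of 3 counts in each. Ddx59, Dhx32 and Dhx40, which were put in no role group, had log2 fold changes of 0.11, -0.12 and 0.049 and overlapped between genotypes.

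A list of 11 members linked to R-loops, which cuts across these roles, ranged from -0.066 to 0.11 in log2 fold change around a median of 0.033. For 2 of the 11, Ddx1 and Ddx21, the knockout libraries lay above all WT libraries, where 5.39% of all tested genes did so. In edgeR, 0 of the 11 reached an unadjusted p of 0.05, and 0 passed with DESeq2 or limma-voom.

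Differences between libraries followed the base composition of the transcripts. Over the 48 members at 10 CPM or more, the deviation of a library from the mean of the 6 libraries correlated with transcript GC content at r = 0.67 for WT replicate 1, 0.68 for WT replicate 2 and -0.62 for WT replicate 3. The corresponding values in Top3b-KO were 0.023, -0.72 and -0.37. These are correlations across genes, which share the libraries and are not independent replicates. Over all 9488 tested genes at that level with a known GC content they were 0.52, 0.51 and -0.50 in WT libraries and -0.083, -0.50 and -0.12 in knockouts, so the pattern was not particular to helicases.

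Positive differences were more frequent among the members with less GC. Of the 24 members with the lowest GC content (40.0 to 50.2%), 21 had a log2 fold change above 0, with a median of 0.071, and of the 24 with the highest (50.2 to 59.6%), 9 did, with a median of -0.022. Across the 48 members GC content and log2 fold change correlated at r = -0.71, and across the 9488 genes at r = -0.46. The abundant Ddx5, Ddx3x, Ddx6 and Dhx9 all lie on the low side, at 41.6, 41.0, 43.4 and 44.6%. When each library's GC trend was removed, the log2 fold change of Ddx3x was 0.11 (unadjusted p 0.032 by edgeR), that of Ddx6 0.096, that of Ddx5 0.047 and that of Ddx28 -0.195, and 0 members passed.

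The contrast in composition can be read from 101 bases in the middle of the coding parts of Ddx6 and Ddx54, shown because WT replicate 3 was farthest above the other WT libraries for Ddx6 and below them for Ddx54 among Ddx members over 100 CPM. G and C are in capitals, and the windows hold 44.6% and 63.4% of them.
Ddx6: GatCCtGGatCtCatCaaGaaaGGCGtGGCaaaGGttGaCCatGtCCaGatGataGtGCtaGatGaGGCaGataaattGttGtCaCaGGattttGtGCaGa
Ddx54: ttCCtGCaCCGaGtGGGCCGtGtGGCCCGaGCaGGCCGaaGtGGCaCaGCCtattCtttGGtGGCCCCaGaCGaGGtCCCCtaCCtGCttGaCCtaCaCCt
WT replicate 3 differed from the mean of WT replicates 1 and 2 by 0.29 on the log2 scale for Ddx6 and by -0.38 for Ddx54. Without that library 6 Ddx and 4 Dhx members had an unadjusted p under 0.05 by edgeR, where 13.2% of all genes tested did, and 0 passed after adjustment. The higher ones were Ddx3x, Ddx5, Ddx50, Ddx52, Ddx6, Dhx15, Dhx36 and Dhx9, and the lower ones Ddx54 and Dhx37. Of all 19161 genes tested in that setting, 1128 were higher and 1392 lower at that level.

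**Figure D4:**
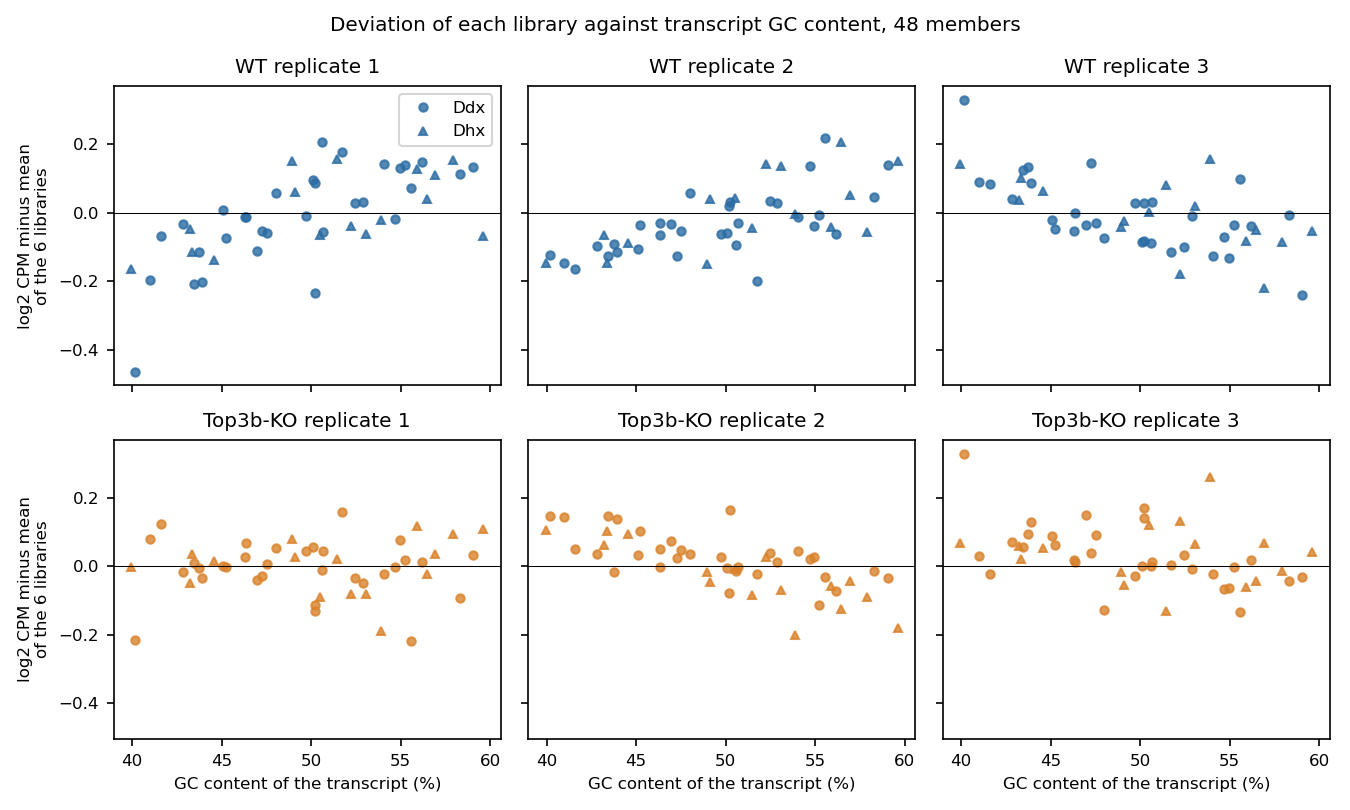
Deviation of each library from the mean of the 6 libraries (log2 CPM, vertical) against GC content of the transcript (percent, horizontal) for the 48 members at 10 CPM or more, with circles for Ddx and triangles for Dhx. WT replicates 1 and 2 slope upward (r = 0.67 and 0.68), WT replicate 3 and Top3b-KO replicate 2 slope downward (r = -0.62 and -0.72), and Top3b-KO replicate 1 is flat.

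Related genes outside the symbol rule also gave no call. Of 22 other RNA helicases in the table, 20 were tested, 0 passed and 0 had an unadjusted p under 0.05 by edgeR, with a median of 0.025 on the log2 scale. Their most abundant members per length were Eif4a2 and Eif4a1, the cap-complex helicases, with log2 fold changes of 0.020 and 0.068. Of 37 helicase cofactors 0 passed. At an unadjusted p under 0.05 by edgeR, where 5.52% of all tested genes lay (3.69% lower in Top3b-KO), there was 1 cofactor. That was Thoc5, a subunit of the THO complex that works with Ddx39b, at 66.6, 65.2 and 59.2 CPM in the WT libraries and 58.5, 56.1 and 56.5 CPM in the knockouts (log2 fold change -0.16, adjusted p 0.89 by edgeR). The other THO subunits differed in sign. Thoc1, Thoc2 and Thoc7 were at 0.18, 0.14 and 0.081 on the log2 scale, and Thoc3 and Thoc6 at -0.075 and -0.098. The cofactor list had a median of 0.027.

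Processed pseudogenes of members can be listed beside them. Gm12183, which holds 8.59% of the 101-base windows of Ddx5, was at 9.30, 11.6 and 11.0 CPM in the WT libraries and 7.41, 6.57 and 7.59 CPM in the knockouts. It was lower in 3 of 3 knockout libraries, opposite in direction to Ddx5, with a log2 fold change of -0.57 and an adjusted p of 0.53 by edgeR. No label states how reads with several matches were treated, so the counts of this pseudogene may hold reads from Ddx5. Gm12183 was named after its values were seen. Gm16433, the Ddx18 pseudogene, stayed between 0.655 and 1.45 CPM in all 6 libraries.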

How the data were processed

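RNA was sequenced from 6 splenocyte libraries. Reads were aligned with STAR to mm39, per the submitters' processing notes. The values deposited by the authors are expected counts, 1 row per gene symbol. For the counting tool, its strand setting and its annotation, nothing is stated in the labels, and the labels describe more than one library kit and read length. The counts were rounded to whole numbers (72 symbols had fractions beyond a tolerance of 1e-06, 0 of them members). Genes were kept by filterByExpr and fitted whole with edgeR's quasi-likelihood F test (robust, TMM factors, genotype as the only term, two-sided), adjusted by Benjamini-Hochberg over 18716 genes with a threshold of 0.05. The fit used edgeR 4.0.16 in R 4.3.3, and the alternatives used DESeq2 1.42.0 and limma 3.58.1.

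CPM values are TMM-scaled and SDs are over 3 libraries. The SEs of log2 fold changes were derived from the edgeR test and include the spread between libraries. The floor of 3 counts covers counting error only. Transcript lengths, GC content and sequences came from GENCODE M21 (GRCm38), where all 51 members matched, Ddx39a by an older symbol. Promoters came from RefSeq on GRCm38.p6. These builds differ from mm39, so the Ddx60 promoter is the only position printed and it was joined to the counts by symbol alone. Protein sequences were not used here.

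Members, role lists and tests were chosen with earlier results of these data known. The genes named are Top3b, which is no member, and members with an unadjusted p under 0.05 or groups that did not overlap. Also named are the 2 most abundant per role, the extremes at 10 CPM or more, pairs of paralogs and members of no role. Others, and the interferon list, were chosen after their values were seen. Alternatives changed the scaling, filter, test, replicate block, depth and libraries. Removal of the GC trend was added after seeing the data.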

Additional observations from a re-analysis of the deposited data

How the results depend on the processing

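Under all 16 alternatives 0 Ddx and 0 Dhx members passed an adjusted p of 0.05, the lowest being 0.064 for Ddx3x without WT replicate 3. Beside 2 genes of the whole table, 44 passed with no filter, 41 with the replicate block, 6 with DESeq2, 1 with robust=FALSE and 4 once the GC trend was taken out, and leaving out 1 library gave 1 to 32. Ddx members at an unadjusted p under 0.05 numbered 1 in the main test, 3 with no filter, 3 with the replicate block, 2 with robust=FALSE, 2 after thinning to the smallest total, and 0 to 6 when 1 library was left out. Dhx members numbered 0, then 1 after thinning and 0 to 4 when 1 library was left out. Over all tested genes the share was 5.52% in the main test, 5.11% with no filter, 6.86% with the replicate block, 5.53% with robust=FALSE, 5.59% after thinning, and 3.58 to 13.2% with 1 library left out. The 6, the 4 and the 13.2% all came without WT replicate 3. The Ddx median ran from 0.030 to 0.050 and the Dhx median from -0.042 to 0.039 with 1 library left out, the 0.050 and the -0.042 both without WT replicate 3. Outside these, the Dhx median ran from -0.0030 after thinning to 0.034 with the GC trend removed. In the latter setting the Ddx median was 0.038. Why the medians moved was not tested. Ddx3x stayed higher in 16 of 16 alternatives (0.11 to 0.26) and Ddx28 lower in 16 of 16 (-0.31 to -0.195). Same-numbered libraries deviated together at correlations of 0.156, -0.0067 and 0.0093. With 3 libraries per genotype these values cannot decide whether the numbers pair the samples. The replicate block therefore stays an alternative. Of the 3 WT libraries, only replicate 1 correlated most with the knockout of its own number. Depth limits Ddx4, Ddx25 and Ddx43 most. With 1 library left out, a genotype has 2 libraries.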
